A study of Mus musculus with 12 samples.

Results

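The nuclear genes for subunits of respiratory chain complexes I to IV were followed through heat shock in a wild-type and a mutant huntingtin striatal cell line. Members were all genes whose annotated symbol begins with Nduf followed by a, b, c, s or v and a digit, is Sdha, Sdhb, Sdhc or Sdhd, or begins with Uqcr or with Cox and a digit from 4 to 8. This gave 64 of the 18194 genes tested: 35 of complex I, 4 of complex II, 8 of complex III and 17 of complex IV. Each gene was read from its single-gene probe set with the highest mean over the 12 arrays. The subunit genes Ndufs6, Ndufa11 and Cox7b are not analysed here as members.

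The respiratory chain sits in the inner mitochondrial membrane. Complex I (NADH dehydrogenase) and complex II (succinate dehydrogenase) pass electrons to ubiquinone, complex III passes them on to cytochrome c, and complex IV (cytochrome c oxidase) hands them to oxygen, while complexes I, III and IV pump protons. Complex I has a matrix arm, which holds the flavin and iron-sulfur clusters, and a membrane arm, and most of its nuclear subunits are accessory subunits around a conserved catalytic core. Loss of complex II activity is a known feature of the striatum in Huntington's disease. Several complex IV subunits exist in isoforms that are used mainly in muscle, lung, brown fat or testis.

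STHdh cells are striatal lines established from embryonic mice. The STHdhQ7/Q7 line (Q7 cells) carries wild-type huntingtin alleles, and the STHdhQ111/Q111 line (Q111 cells) carries knock-in alleles with an expanded glutamine tract on both chromosomes. All cells grew at 33 °C under 5% CO2 in serum-containing medium with the antibiotic G418 and were used up to passage 15. For each line there were 3 Affymetrix arrays at 33 °C and 3 after 6 h at 42 °C (heat shock). With 1 line per genotype, effects of line and genotype cannot be told apart, and the labels do not say whether replicates were separate cultures, so each p-value reflects the spread among these arrays, which may be technical. In RNA from whole cultures, fewer cells of a type and less RNA per cell cannot be told apart.

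Levels are log2 values per probe set, and the median gene had a level of 7.05. The highest value of 27 bacterial control probe sets, 5.14, was taken as the upper bound of background range. At 33 °C, 7 of 8 measured neural progenitor markers were above background range in Q7 cells against 4 in Q111 cells. Fabp7, Pax6 and Sox2 were at 6.83, 9.59 and 10.6 in untreated Q7 cells. In untreated Q111 cells they were in background range, at 4.24, 5.00 and 4.71. Nes was at 9.28 and 5.68 and Msi1 at 7.75 and 8.14 in untreated Q7 and Q111 cells, and vimentin was at 13.5 to 13.8 in every group. Of 6 markers of mature striatal projection neurons, 3 were above background range in Q7 cells at each temperature, 1 in Q111 cells at 33 °C and 2 in Q111 cells after heat shock. Rgs9 was at 5.49 to 5.70 in the 4 groups, Tac1 was at 7.38 and 6.73 in Q7 cells without and with heat shock, and Drd1 reached 6.93 in heat-shocked Q111 cells. Drd2 (2.95 to 3.06) and Ppp1r1b (4.68 to 5.01) were in background range in every group. Of 7 fibroblast markers 5 were above it in both lines at 33 °C, with Col1a1 at 12.8 in Q7 cells and 13.2 in Q111 cells. In background range were also all 6 endothelial markers and 6 or 7 of 7 microglial markers at 33 °C. The actin signal at the 3′ end minus that at the 5′ end, a measure of RNA integrity, was 0.54 ± 0.16 (SD, n = 3) in Q7 cells at 33 °C and 1.48 ± 0.12 after heat shock. It was 0.72 ± 0.36 in Q111 cells at 33 °C and 1.25 ± 0.23 after heat shock, so this measure moved with heat shock in both lines. The heat-shocked Q111 array of replicate 3 stood furthest from its replicates (SD of the differences over probe sets 0.756 and 0.845, against 0.358 to 0.650 in the other pairs).

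Promoters of the members that carry the main pattern are shown first, as the 120 bases before the RefSeq transcription start in build GRCm38.p6, read 5′ to 3′ on the gene's strand. Cox7c and Ndufb6 rose after heat shock in both lines, and Ndufv1, Ndufs3 and Sdha fell in both. Capitals mark matches to a heat shock element pair (GAANNTTC or TTCNNGAA), an ETS motif (CCGGAAG) or an NRF1 core pair (GCGCNNGCG, read on both strands, so that neighbouring matches overlap).
Cox7c (chr13:86046796-86046915, minus strand): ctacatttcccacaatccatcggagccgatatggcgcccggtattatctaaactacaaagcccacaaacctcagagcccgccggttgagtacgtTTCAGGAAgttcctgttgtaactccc
Ndufb6 (chr4:40279422-40279541, minus strand): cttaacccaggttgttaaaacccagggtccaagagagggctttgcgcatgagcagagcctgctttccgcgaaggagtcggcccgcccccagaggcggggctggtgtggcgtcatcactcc
Ndufv1 (chr19:4012756-4012875, minus strand): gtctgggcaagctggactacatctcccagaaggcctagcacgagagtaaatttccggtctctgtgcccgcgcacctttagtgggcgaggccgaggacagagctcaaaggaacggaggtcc
Ndufs3 (chr2:90904722-90904841, minus strand): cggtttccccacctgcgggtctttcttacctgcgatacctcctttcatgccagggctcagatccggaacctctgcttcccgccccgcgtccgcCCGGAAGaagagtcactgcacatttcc
Sdha (chr13:74350241-74350360, minus strand): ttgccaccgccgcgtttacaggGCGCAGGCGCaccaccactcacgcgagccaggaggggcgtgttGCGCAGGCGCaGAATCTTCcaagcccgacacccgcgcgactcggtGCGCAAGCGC

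In these stretches the heat shock element pair began 26 bases before the start in Cox7c and 44 bases before it in Sdha, so the letters stood both before a gene that rose and before one that fell. Over the RefSeq promoter window, from 250 bases before to 50 bases after the start, 51 of the 64 members matched an entry. The NRF1 core pair was in 17 of these 51 promoters (33.3%, against 13.5% of 27025 promoters of all genes), the full NRF1 motif GCGCATGCG in 4 (7.84% against 1.95%), the ETS motif in 11 (21.6% against 9.93%), the YY1 motif AAGATGGC in 6 (11.8% against 3.19%) and the heat shock element pair in 6 (11.8% against 17%). All motifs were searched on both strands. NRF1 and the ETS factor GABP are known regulators of respiratory chain genes, and all 6 promoters with the YY1 letters belonged to complex I genes. Of the 13 promoters of members higher after heat shock in both lines, 1 held the heat shock element pair, as did 1 of the 4 promoters of members lower in both. A match describes the letters of the window, not the binding of a factor.

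After heat shock, most respiratory chain subunits that changed were higher, and the few that were lower were led by catalytic subunits of complex I. In Q7 cells 17 of 64 members rose and 6 fell by limma with Benjamini-Hochberg adjustment over all genes (adjusted p under 0.05), where 12.3% of all genes rose and 18.1% fell. In Q111 cells 26 of 64 rose and 5 fell, where 20% of all genes rose and 28.2% fell. As shares, 26.6% and 40.6% of the members rose, and 9.38% and 7.81% fell. The median change of the members was 0.17 log2 in Q7 cells and 0.30 in Q111 cells. Over all genes the median was 0.0027 and -0.0182, and over the 9097 genes at or above the median level it was -0.12 and -0.36. Of the 64 members, 55 were at or above that level, and their own median was 0.17 and 0.29. Of these 55, 29.1% rose in Q7 cells and 43.6% in Q111 cells, where 18.1% and 16.7% of all genes at that level rose. Falls made up 10.9% and 9.09% of the 55, where 25.6% and 41.6% of all genes at that level fell.

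The size and the balance of these counts moved with the scaling of the arrays. With arrays centred on the median of all genes, which moved the median change of all genes to 0.36 in Q7 cells and 0.71 in Q111 cells, 37 members rose and 2 fell in Q7 cells, and 59 rose and none fell in Q111 cells. Centred on ribosomal protein genes, 11 rose and 7 fell in Q7 cells and 20 rose and 6 fell in Q111 cells, and after a further quantile normalization the counts were 13 and 7, and 20 and 4. The share of rises among the called members in Q7 cells was thus 73.9% as deposited and 94.9%, 61.1% and 65% under these scalings. Relative to all genes, the median of the members was 0.17 higher in Q7 cells and 0.32 higher in Q111 cells, a distance that centring leaves as it is by construction, and after quantile normalization it was 0.15 and 0.32. With the actin difference as a covariate, 1 member was called in Q7 cells and 16 in Q111 cells, all higher. In that fit the median SE grew from 0.15 to 0.31 in Q7 cells and to 0.21 in Q111 cells, and the 23 and 31 members called without the covariate all kept their sign. In Q7 cells the count of 23 fell to 15 without the untreated array of replicate 1 or 2 or the heat-shocked one of replicate 1, and to 13 without the heat-shocked one of replicate 3.

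**Figure D1:**
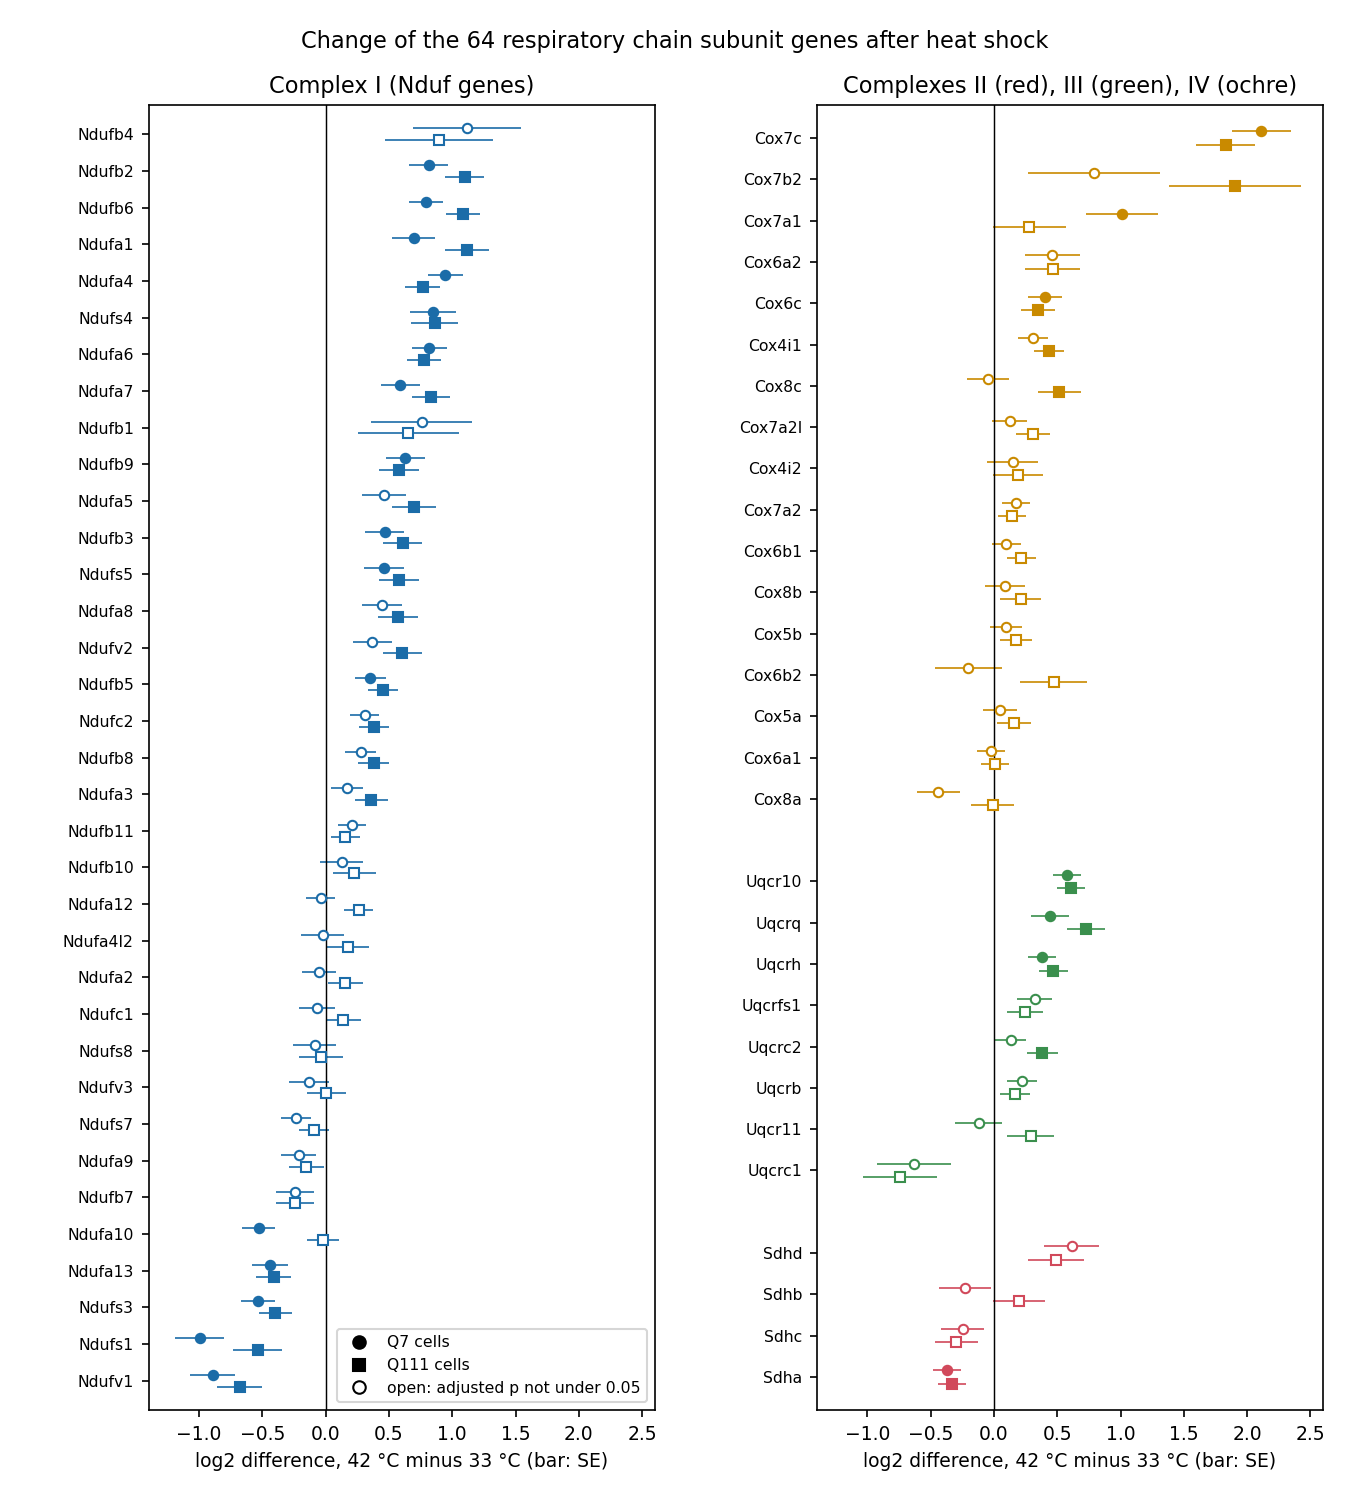
Change of each of the 64 subunit genes after heat shock, as the log2 difference of 42 °C minus 33 °C with its SE. Circles are Q7 cells, squares are Q111 cells, and filled symbols passed an adjusted p under 0.05. Cox7c lies furthest to the right in Q7 cells, at 2.11, while Ndufs1 and Ndufv1 lie furthest to the left in complex I.

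Within complex I, 11 of 35 subunits rose and 5 fell in Q7 cells (median change 0.28), and 17 rose and 4 fell in Q111 cells (median 0.38). The shares that rose were 31.4% and 48.6%, beside 12.3% and 20% of all genes. Complex I was counted by gene name, so Ndufa4 and its paralogue Ndufa4l2 are among these 35 genes and among the 29 others below. The membrane arm and the accessory subunits held most of the rises. Of 20 genes counted as membrane arm 7 rose and 2 fell in Q7 cells and 11 rose and 1 fell in Q111 cells, with medians of 0.33 and 0.42. They include Ndufa9, which can also be assigned to the matrix arm, with changes of -0.21 and -0.15, neither called. The medians and shares of the arms depend on that assignment. Of 13 matrix arm genes 3 rose and 3 fell in Q7 cells and 5 rose and 3 fell in Q111 cells, and their median was -0.05 in Q7 cells as deposited and 0.30 with arrays centred on all genes, and 0.16 in Q111 cells. Of 6 core subunits, Ndufs1, Ndufs3, Ndufs7, Ndufs8, Ndufv1 and Ndufv2, none rose and 3 fell in Q7 cells, and 1 rose and 3 fell in Q111 cells. The 29 other complex I genes had 11 rises and 2 falls in Q7 cells and 16 rises and 1 fall in Q111 cells. The share that fell was 50% of the 6 core subunits and 23.1% of the matrix arm genes in each line. In complex I it was 14.3% in Q7 cells and 11.4% in Q111 cells. Beside these, 18.1% of all genes and 25.6% of genes at or above the median level fell in Q7 cells. In Q111 cells 28.2% and 41.6% fell. With only 6 core subunits, their share is imprecise.

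Ndufs1 encodes the largest core subunit, which holds iron-sulfur clusters on the way from the flavin to ubiquinone. Its levels in Q7 cells were 11.12, 11.48 and 11.47 at 33 °C and 10.44, 10.23 and 10.42 after heat shock. In Q111 cells they were 10.66, 10.81 and 11.08 at 33 °C and 10.27, 10.70 and 9.98 after heat shock. The Q7 groups did not overlap, whereas 1 heat-shocked Q111 array lay above the lowest untreated one. Ndufs1 fell 1.99-fold (SE of the log2 difference 0.19, limma adjusted p = 0.00254) in Q7 cells and fell by 0.54 (SE 0.19, adjusted p = 0.0401) in Q111 cells. The Q111 call held under 10 of 23 alternative settings.

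Ndufv1 carries the flavin site that takes electrons from NADH. Its levels were 12.61, 12.81 and 12.73 in Q7 cells at 33 °C and 11.88, 11.64 and 11.94 after heat shock. In Q111 cells they were 12.42, 12.72 and 12.62, and 11.91, 12.25 and 11.57 after heat shock. All heat-shocked arrays lay below all untreated arrays of their line. The fall was 1.86-fold in Q7 cells (-0.89 log2, SE 0.18, limma adjusted p = 0.00275) and 1.60-fold in Q111 cells (-0.68, SE 0.18, adjusted p = 0.00875).

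Ndufs3, a core subunit of the matrix arm near the ubiquinone site, went from 12.44, 12.52 and 12.58 to 12.05, 11.86 and 12.02 in Q7 cells. The Q111 values went from 12.59, 12.35 and 12.70 to 12.26, 12.13 and 12.07. The groups of each line did not overlap, and Ndufs3 fell by 0.53 (SE 0.13) and by 0.40 (SE 0.13). Ndufa13, also known as Grim19, an accessory subunit at the junction of the arms, fell by 0.44 and by 0.41 (SE 0.14 in each). Ndufa10, an accessory subunit of the membrane arm, fell by 0.53 in Q7 cells (11.63, 11.90 and 11.76 against 11.29, 11.15 and 11.27) and had a change of -0.02 in Q111 cells, where it was at 11.17 to 11.33 without heat shock. Under the scaling on the median of all genes the changes of Ndufs1, Ndufs3, Ndufv1, Ndufa13 and Sdha in Q111 cells turned positive, reaching 0.05 to 0.40, and in Q7 cells they stayed negative. Without the Q111 array of replicate 3 from either temperature, Ndufs1, Ndufs3, Ndufa13 and Sdha lost their call in Q111 cells.

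The other core subunits were not called lower. Ndufv2, which holds an iron-sulfur cluster beside the flavin site, rose by 0.61 (SE 0.15, limma adjusted p = 0.0070) in Q111 cells and had a change of 0.37 (adjusted p = 0.0895) in Q7 cells. Ndufs7 had changes of -0.23 and -0.10 and Ndufs8 of -0.09 and -0.04, none of them called.

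The rises counted in complex I were those of accessory subunits, apart from Ndufv2 in Q111 cells and Ndufa4, which was counted there by its name. Ndufb6, a membrane arm accessory subunit, went from 11.80, 11.77 and 12.10 to 12.59, 12.78 and 12.67 in Q7 cells and from 11.47, 11.63 and 11.68 to 12.64, 12.60 and 12.80 in Q111 cells. It rose 1.73-fold (0.79 log2, SE 0.14, limma adjusted p = 0.00114) and 2.12-fold (1.09 log2, SE 0.14), with all heat-shocked arrays above all untreated arrays. Ndufa1, a membrane subunit needed for assembly of the complex, was at 11.39, 11.27 and 11.36 in untreated Q7 cells and at 12.06, 11.89 and 12.15 after heat shock. The Q111 arrays had 11.33, 10.84 and 11.27 and then at 12.29, 12.50 and 11.99. Its groups did not overlap in either line, and it rose 1.62-fold and 2.17-fold.

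Ndufb2 rose 1.76-fold in Q7 cells (0.81 log2, SE 0.16) and 2.14-fold in Q111 cells (1.10, SE 0.16). Ndufs4, an accessory subunit whose loss causes Leigh syndrome, rose by 0.85 and 0.86, and Ndufa6 by 0.82 and 0.78. Ndufa4, named as a complex I gene but now placed in complex IV, went from 11.84, 11.76 and 12.05 to 12.79, 12.86 and 12.84 in Q7 cells, a 1.93-fold rise (0.94 log2, SE 0.14, limma adjusted p = 0.00042). Its rise in Q111 cells was 0.77. Ndufa7, Ndufb3, Ndufb5, Ndufb9 and Ndufs5 also rose in both lines, by 0.35 to 0.63 in Q7 cells and by 0.45 to 0.83 in Q111 cells. Ndufa3, Ndufa5, Ndufa8, Ndufb8 and Ndufc2 passed in Q111 cells alone, with changes of 0.36 to 0.70 there and 0.17 to 0.46 in Q7 cells.

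Complex II has no proton pump and also works in the tricarboxylic acid cycle. Of its 4 genes Sdha, the flavoprotein that oxidizes succinate, fell in both lines and no other member passed. Sdha was at 11.58, 11.54 and 11.59 in Q7 cells and at 11.15, 11.22 and 11.23 after heat shock. The Q111 arrays had 11.62, 11.81 and 11.77 and then at 11.44, 11.40 and 11.36. No arrays overlapped, and Sdha fell by 0.37 (SE 0.11, 1.29-fold, limma adjusted p = 0.0261) and by 0.33 (SE 0.11, 1.26-fold, adjusted p = 0.0289). The SD within its groups was 0.03 to 0.10. The Q7 call held under 14 of 23 settings and the Q111 call under 15. A second Sdha probe set, with a mean level of 11.1, fell by 1.21 and by 0.95, in the same direction. Sdhb, the iron-sulfur subunit, had changes of -0.23 and 0.20, and the membrane anchors had -0.25 and -0.30 (Sdhc) and 0.61 and 0.49 (Sdhd, limma adjusted p = 0.0545 and 0.0857). Heat-shocked arrays lay above untreated ones for Sdhd in both lines. The median of the complex was -0.24 in Q7 cells and -0.05 in Q111 cells as deposited, and 0.11 and 0.68 with arrays centred on all genes.

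In complex III 3 of 8 genes rose in Q7 cells and 4 in Q111 cells, and none fell in the levels as deposited. These shares of 37.5% and 50% stand beside 12.3% and 20% of all genes and are imprecise with 8 genes. Uqcr10, Uqcrq and Uqcrh, small supernumerary subunits, rose in both lines, and Uqcrc2, one of the large core proteins, passed in Q111 cells. Uqcr10 was at 11.97, 12.07 and 12.14 in Q7 cells and at 12.58, 12.64 and 12.69 after heat shock. In Q111 cells it was at 11.97, 12.01 and 12.03 and then at 12.70, 12.57 and 12.57. The arrays were well apart, with rises of 0.58 (SE 0.11, limma adjusted p = 0.00256) and 0.61 (SE 0.11, adjusted p = 0.0012). Uqcrq rose by 0.44 and 0.73 and Uqcrh by 0.38 and 0.47. Uqcrfs1, the Rieske iron-sulfur protein of the catalytic core, had changes of 0.32 and 0.25 (limma adjusted p = 0.108 and 0.165). The other large core protein, Uqcrc1, chosen for mention after its values were seen, lay the other way with changes of -0.63 and -0.74 (limma adjusted p = 0.133 and 0.0559). Its untreated arrays ranged from 10.84 to 11.68 in Q7 cells and from 10.88 to 11.91 in Q111 cells and overlapped the heat-shocked ones. Its Q111 change passed as lower under 6 of 23 alternative settings, among them the scaling on ribosomal protein genes and the fits without replicate 1 of either Q111 group, and its Q7 change passed under 1, the array weights.

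In complex IV 3 of 17 genes rose in Q7 cells and 5 in Q111 cells, and none fell in the levels as deposited. The shares that rose were 17.6% and 29.4%, beside 12.3% and 20% of all genes. Among genes at or above the median level, 18.1% and 16.7% rose. The rises include Cox7a1 in Q7 cells and Cox7b2 and Cox8c in Q111 cells, whose signals lay near or in background range. The change of Cox7c, a small membrane-spanning subunit, stood first among all called members in Q7 cells. Cox7c was at 7.52, 7.41 and 7.92 in untreated Q7 cells and at 9.47, 9.79 and 9.94 after heat shock. It was at 7.22, 8.09 and 7.79 in Q111 cells and then at 9.52, 9.75 and 9.32. The groups were more than 1 log2 unit apart in each line, and the rise was 4.33-fold (2.11 log2, SE 0.23, limma adjusted p = 7.23e-05) in Q7 cells and 3.56-fold (1.83, SE 0.23, adjusted p = 0.000114) in Q111 cells. These values come from a probe set with a mean level of 8.64, the brighter of the 2 that name Cox7c, and probe sets with no gene name were not used. The dimmer one, with a mean level of 6.05, had changes of 2.04 and 0.85, of which the first passed.

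Cox6c rose by 0.40 and 0.35. Cox4i1, the isoform of the regulatory subunit found in most tissues, rose by 0.44 (SE 0.12, limma adjusted p = 0.0114) in Q111 cells and had a change of 0.31 (adjusted p = 0.0725) in Q7 cells. Cox5a and Cox5b, whose products contact the catalytic core, had changes of 0.05 to 0.18 and none passed. Cox6a1, Cox6b1, Cox7a2 and Cox8a, the widely expressed isoforms, had changes between -0.44 (Cox8a in Q7 cells, limma adjusted p = 0.0716) and 0.22, and none passed. The Q7 change of Cox8a passed as lower under 7 of 23 alternative settings, among them the scaling on ribosomal protein genes, the further quantile normalization and the fit of the Q7 arrays alone.

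**Figure D2:**
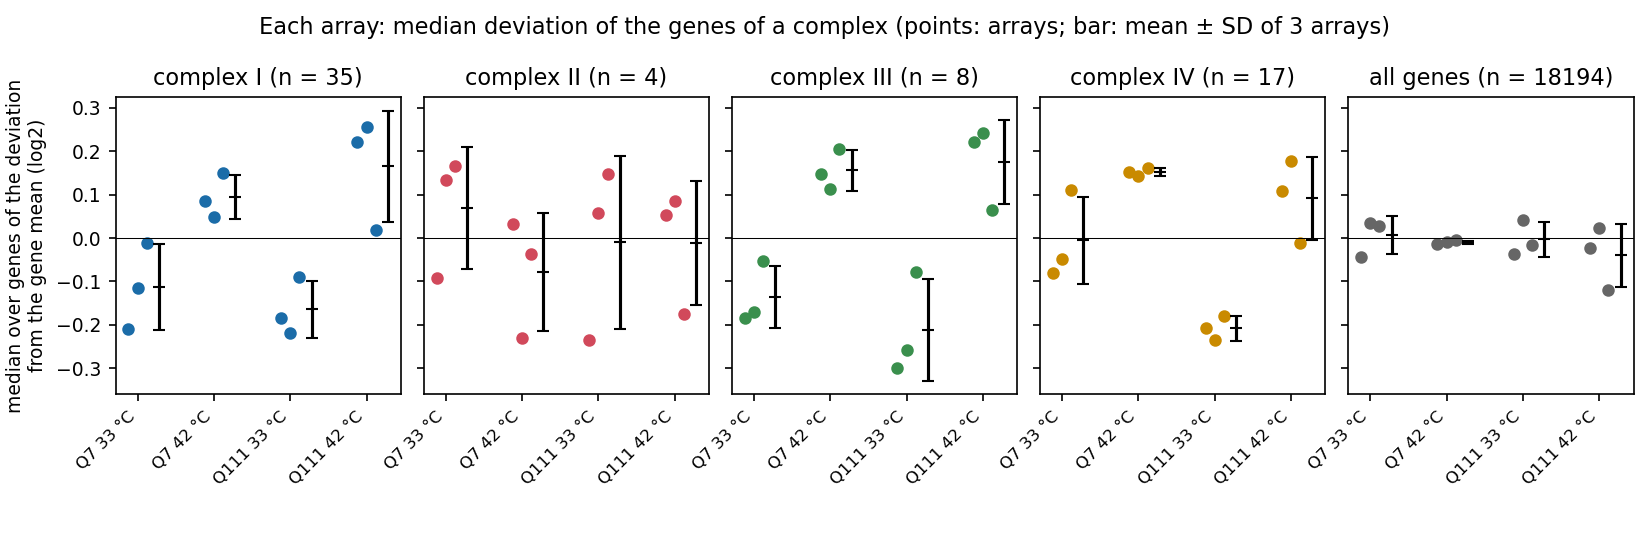
Median deviation of the genes of each complex, and of all genes, from their own mean over 12 arrays (log2), for each array as a point, with the mean and SD of 3 arrays. Heat-shocked arrays of complexes I and III lie above the untreated arrays of the same line, complex II shows no order, and for complex I the heat-shocked Q111 array of replicate 3 (0.02) lies below the other two (0.22 and 0.26).

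By array, the median deviation of the complex I genes from their own means was -0.11 ± 0.10 (SD, n = 3) in Q7 cells at 33 °C and 0.09 ± 0.05 after heat shock. In Q111 cells it was -0.16 ± 0.07 and 0.17 ± 0.13. For complex III these values were -0.14 ± 0.07 and 0.16 ± 0.05 in Q7 cells, and -0.21 ± 0.12 and 0.18 ± 0.10 in Q111 cells. For complex IV they were -0.01 ± 0.10 and 0.15 ± 0.01, and -0.21 ± 0.03 and 0.09 ± 0.10. In these 3 complexes every heat-shocked array lay above every untreated array of its line. The median over 6 core subunits of complex I, of which 3 were called lower in each line, went from 0.22 ± 0.02 to -0.19 ± 0.11 in Q7 cells, with no overlap, and from 0.10 ± 0.15 to -0.10 ± 0.11 in Q111 cells, with overlap. Complex II was at 0.07 ± 0.14 and -0.08 ± 0.14 in Q7 cells and at -0.01 ± 0.20 and -0.01 ± 0.14 in Q111 cells, with overlapping arrays.

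Members called in both lines changed in the same direction, and opposite calls were rare over all genes as well. Of the 33 members called in either line, 16 were higher in both and 5 were lower in both (Ndufs1, Ndufs3, Ndufv1, Ndufa13 and Sdha). None went opposite ways, 2 passed in Q7 cells alone (Ndufa10 and Cox7a1) and 10 in Q111 cells alone. Of all 18194 genes, 1487 were higher in both lines, 2631 were lower in both and 98 went opposite ways. The changes in the lines, which share no arrays, had a Pearson correlation of 0.878 and a Spearman correlation of 0.889 over the 64 members, given as a description, beside 0.745 and 0.732 over all genes. The Pearson correlation was 0.950 in complex I, 0.840 in the 4 genes of complex II, 0.905 in complex III and 0.753 in complex IV. The Spearman value was 0.962 in complex I and 0.463 in complex IV, so the agreement was not alike across the complexes.

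The test of the difference between the heat shock effects called 0 of 64 members by limma, where 1.21% of all genes were called with a higher and 4.51% with a lower effect in Q111 cells. At an unadjusted limma p under 0.05 there were 2 of 64 members, against 3852 of all 18194 genes. The 2 were Ndufa10 (effect 0.51 higher in Q111 cells, SE 0.18, limma adjusted p = 0.132) and Cox8c (0.56 higher, SE 0.24, adjusted p = 0.205). With arrays centred on the median of all genes 2 members passed (Ndufa10 and Cox8a), with array weights 4 (Ndufa10, Cox8a, Cox6b2 and Cox7a1), and without the heat-shocked Q7 array of replicate 2 there was 1 (Cox7a1). The median difference was 0.11, against -0.0065 over all genes and -0.18 over the brighter genes. Differences above 0 were found for 48 of 64 members, 8988 of all 18194 genes and 3197 of the 9097 brighter genes. The extremes, -0.73 for Cox7a1 (SE 0.41) and 1.11 for Cox7b2 (SE 0.74), belonged to dim probe sets with wide errors.

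**Figure D3:**
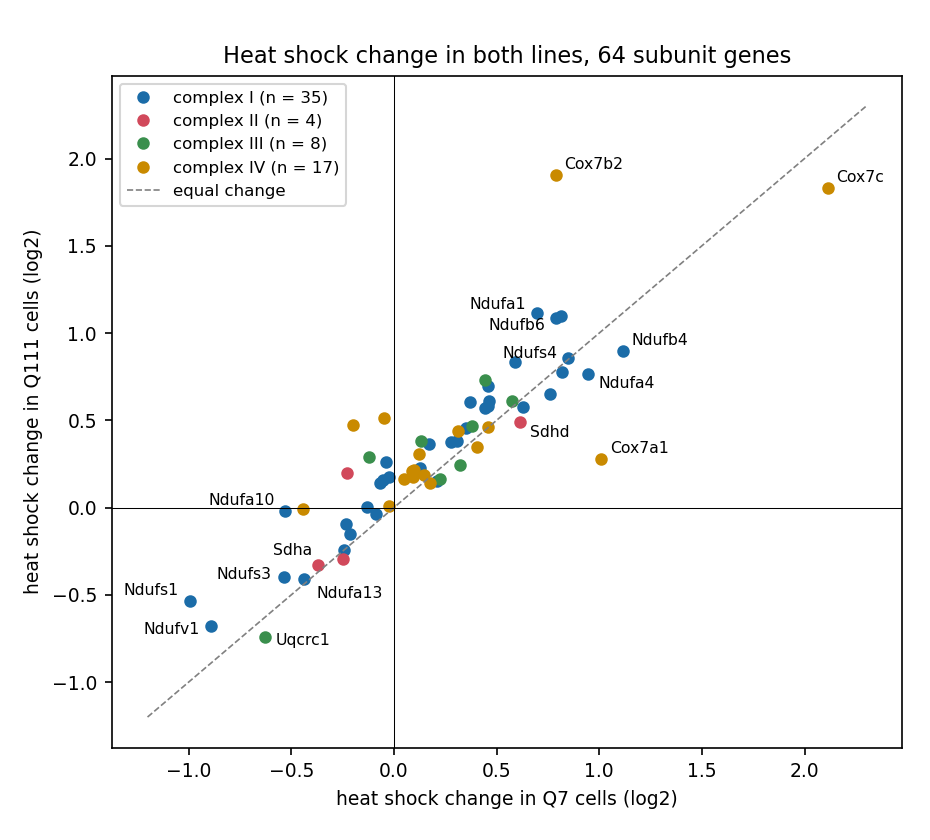
Heat shock change (log2) of each of the 64 subunit genes in Q7 cells (horizontal axis) against Q111 cells (vertical axis), coloured by complex, with the line of equal change. Most points lie near the line (Pearson correlation 0.878), with Cox7b2, Cox7a1 and Ndufa10 further from it.

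The lines themselves differed in few members. At 33 °C 2 of 64 were higher in Q111 cells than in Q7 cells and 3 were lower, where 5.11% of all genes were higher and 5.68% lower. After heat shock 2 were higher and 2 lower, where 6.58% of all genes were higher and 15.5% lower. At 33 °C, 2 members were called without the untreated Q7 array of replicate 2 or the untreated Q111 array of replicate 1 or 2, and 3 without that of replicate 3. Fitted to the untreated arrays alone with the replicate number as a block, 2 were higher and 5 lower, including the 5 of the fit of all arrays. In the fit of all arrays Ndufv3, Ndufs5, Cox6b2 and Cox7a1 passed at both temperatures with the same direction, and the comparisons rest on different arrays. Medians by complex at 33 °C were -0.08 (complex I), 0.01 (II), -0.06 (III) and -0.13 (IV).

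Ndufv3, an accessory subunit beside the flavin site, was at 11.59, 11.74 and 12.06 in untreated Q7 cells and at 12.74, 12.58 and 12.79 in untreated Q111 cells. After heat shock it was at 11.69, 11.57 and 11.73 in Q7 cells and at 12.87, 12.76 and 12.49 in Q111 cells. Every Q111 array lay above every Q7 array. It was 1.88-fold higher in Q111 cells at 33 °C (0.91 log2, SE 0.16, limma adjusted p = 0.00221) and 2.06-fold higher after heat shock (1.04, SE 0.16, adjusted p = 0.000695). It had heat shock changes of -0.13 and 0.00 log2, neither called.

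Ndufs5, a membrane arm accessory subunit, was at 10.82, 10.80 and 11.19 in untreated Q7 cells and at 11.53, 11.42 and 11.58 in untreated Q111 cells. It was 1.49-fold higher in Q111 cells at 33 °C (0.57 log2, SE 0.16, limma adjusted p = 0.0396) and 1.62-fold higher after heat shock (0.70, SE 0.16, adjusted p = 0.00894). The arrays did not overlap between the lines at either temperature, and the call at 33 °C held under 12 of 24 settings. A brighter probe set that names both Ndufs5 and its pseudogene Ndufs5-ps had a line difference of 0.05 at 33 °C and 0.23 after heat shock, neither called, so the signals for this gene disagree. Ndufa10 was lower in Q111 cells at 33 °C by the probe set used (difference -0.54, SE 0.13, limma adjusted p = 0.0166) and not after heat shock (-0.04), and another of its probe sets above background range did not pass.

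Cox6b2, an isoform of the subunit that bridges the dimer and is used in testis, was at 6.70, 6.76 and 7.05 in untreated Q7 cells and at 5.25, 4.72 and 5.23 in untreated Q111 cells. After heat shock the values were 6.94, 6.19 and 6.77, and 5.97, 5.61 and 5.03. It was 3.40-fold lower in Q111 cells at 33 °C (-1.77 log2, SE 0.27, limma adjusted p = 0.000863) and 2.14-fold lower after heat shock (-1.09, SE 0.27, adjusted p = 0.0122). Of the 6 Q111 arrays, 2 were in background range, so these folds rest on signals near it.

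Cox7a1, an isoform used in heart and muscle, was at 4.85, 5.45 and 5.36 in untreated Q7 cells and at 6.52, 5.49 and 6.69 after heat shock. This was a rise of 1.01 (SE 0.29, limma adjusted p = 0.0196). The lowest untreated Q7 array (4.85) was in background range, so the rise starts near it. In Q111 cells Cox7a1 was in background range on all 6 arrays, at 4.04 to 4.70, which gives only an upper bound for its level there. It passed as lower in Q111 cells at 33 °C and after heat shock (limma adjusted p = 0.0294 and 0.000951), with no overlap of the arrays, and the size of this difference is not given because of that bound. Of 7 muscle, heart and brown fat markers, 2 were above background range in untreated Q7 cells and 1 in each other group. One of them, Tnnt2, was at 11.6 in untreated Q7 cells and at 5.71 in untreated Q111 cells, while Myh6 and Myog were in background range in every group. The sum of the log2 values of these 7 markers was 36.2 to 37.2 in untreated Q7 cells and 29.7 to 32.1 in untreated Q111 cells. Tnnt2 made most of that gap. The others lay close together in untreated Q7 and Q111 cells, such as Ckm (5.03 and 4.97), Myh7 (4.83 and 4.73) and Ucp1 (5.15 and 4.95). The sum of the log2 values of 8 neural progenitor markers was 66.0 to 66.8 and 48.8 to 50.9. The part of these marker differences in the line differences of the subunits was not tested.

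**Figure D4:**
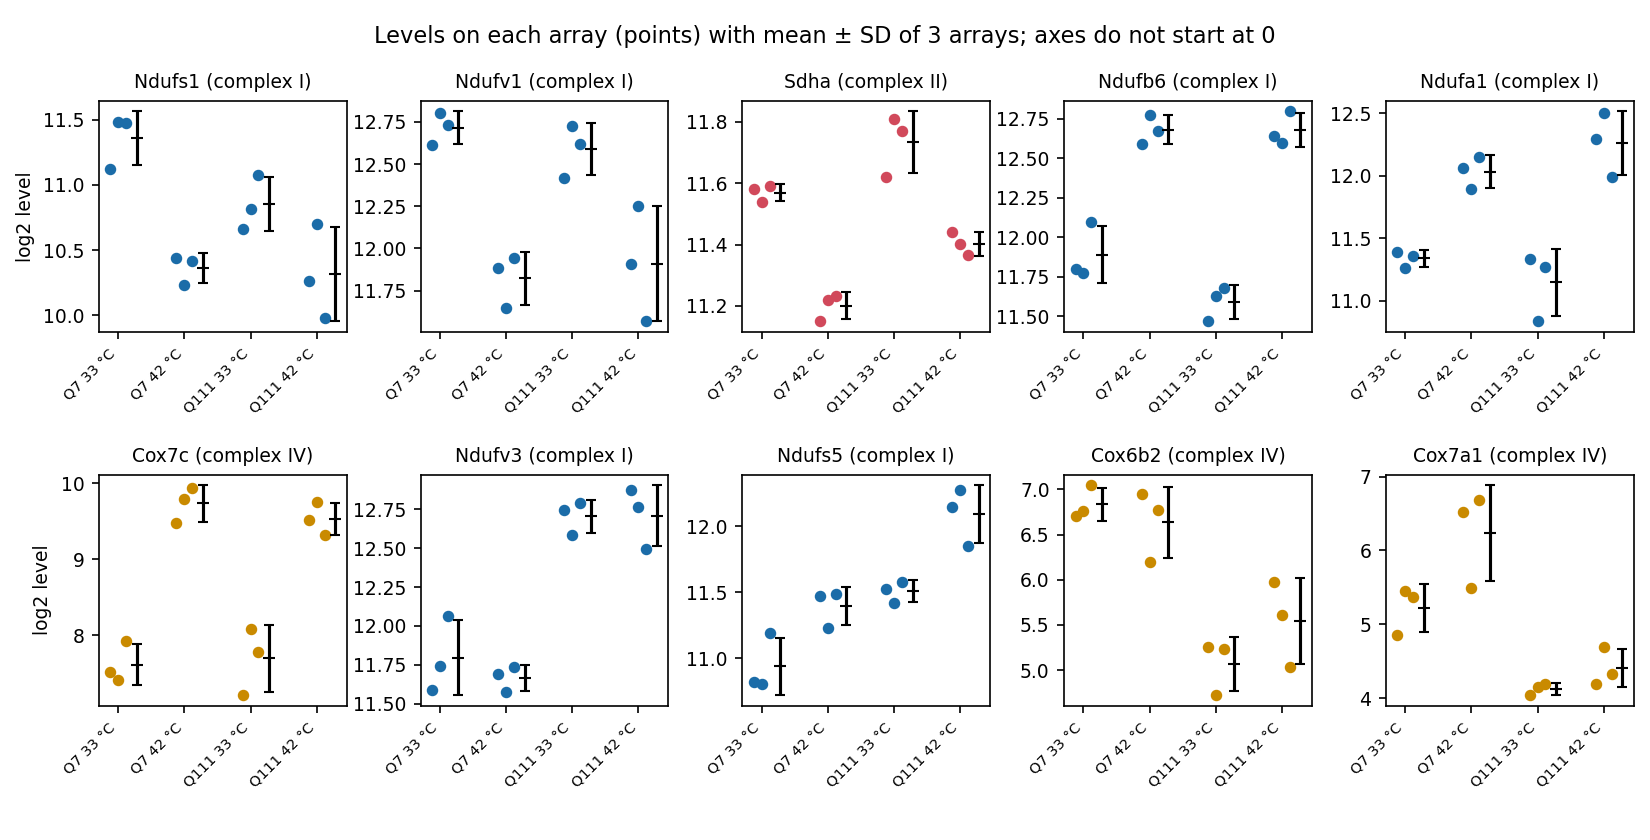
Level (log2) of 10 subunit genes on each array, as points, with the mean and SD of 3 arrays per group. The axes do not start at 0. Ndufs1, Ndufv1 and Sdha are lower after heat shock, Ndufb6, Ndufa1 and Cox7c are higher, Ndufv3 and Ndufs5 are higher in Q111 cells, and Cox6b2 and Cox7a1 are lower there.

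The remaining tissue isoforms were dim. Cox4i2, the lung isoform, and Cox8b, the heart and muscle isoform, were in background range on all 12 arrays, with means of 4.86 and 4.24, and were the only members not above it on any array. Ndufa4l2, a hypoxia-induced paralogue of Ndufa4, had a mean of 5.31 and heat shock changes of -0.02 and 0.18. Cox6a2, the heart and muscle isoform, had a mean of 6.35 and a change of 0.46 in each line, not called. Cox8c, a testis isoform, rose by 0.52 in Q111 cells (5.34, 4.87 and 5.35 against 5.50, 5.84 and 5.77) and had a change of -0.05 in Q7 cells. Cox7b2, a testis isoform, was at 2.71, 3.11 and 4.77 in untreated Q111 cells and at 5.17, 5.01 and 6.12 after heat shock. Its fitted rise of 1.90 (SE 0.52, limma adjusted p = 0.0113) starts from arrays that all lie in background range and gives no reliable fold.

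Other probe sets of the same genes bear on the calls. A further probe set above background range existed for 14 of the 23 members called in Q7 cells, and for 5 of these (Ndufa10, Ndufb9, Ndufs4, Uqcrh and Uqcrq) at least 1 of them did not pass. In Q111 cells this held for 7 of 19 (Cox7c, Ndufb8, Ndufb9, Ndufs4, Uqcr10, Uqcrh and Uqcrq), and no other probe set passed in the opposite direction in either line. A probe set of Ndufs4 with a mean level of 7.23 rose by 4.58 in Q7 cells and 4.85 in Q111 cells, against 0.85 and 0.86 for the brightest one. A probe set of Ndufa3 with a mean of 8.39 rose by 2.27 and 2.44, against 0.17 and 0.36, and one of Cox5b with a mean of 7.73 rose by 1.41 and 1.58, against 0.09 and 0.18, where the brightest probe set of Cox5b passed in neither line. A pair of Uqcr10 probe sets with means of 6.96 and 7.29 had line differences of -3.06 and -2.38 at 33 °C, lower in Q111 cells, where the brightest one had a difference of -0.06. Probe sets of 1 gene can read different transcript ends, and these disagreements limit statements on the whole gene.

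The rest of the mitochondrial energy pathway was read from lists of other genes. Of 16 ATP synthase subunits 4 rose and 1 fell in Q7 cells and 6 rose and 1 fell in Q111 cells, with medians of 0.17 and 0.12. Atp5e, of the central stalk, rose by 0.70 and 0.82 and Atp5l, a membrane subunit, by 0.55 and 0.81, while Atp5d, also of the central stalk, fell by 0.51 and by 0.34. Cycs, cytochrome c, which carries electrons from complex III to IV, rose by 0.49 and 0.94, and Ndufab1, the acyl carrier subunit of complex I, by 0.41 and 0.46. Coq7, of ubiquinone synthesis, and Etfb, of the electron transfer flavoprotein, fell in Q7 cells by 1.05 and 0.93. Of the mitochondrially encoded subunits 1 was measured: ND5 of complex I rose by 0.97 (SE 0.30, limma adjusted p = 0.021) in Q111 cells and had a change of 0.78 in Q7 cells.

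Tricarboxylic acid cycle enzymes, which supply NADH and succinate, had no rises in the levels as deposited. Of 12 measured, 6 fell in Q7 cells and 4 in Q111 cells, with medians of -0.44 and -0.25. Ogdh, of the oxoglutarate dehydrogenase complex, fell by 1.74 and 2.24, Suclg2, of succinyl-CoA synthetase, fell by 0.86 in Q7 cells, and Sucla2 of the same enzyme fell by 0.55 in Q111 cells. Assembly factors changed in both directions. For complex I 4 of 14 rose and 2 fell in Q7 cells and 3 rose and 2 fell in Q111 cells. Tmem126b and Ndufaf6 rose in Q7 cells by 1.21 and 1.14, and Ndufaf6 and Ndufaf5 in Q111 cells by 1.15 and 1.07. Ndufaf3 fell by 1.41 and 1.63, and Acad9 by 1.35 and 1.08. For complexes II to IV 9 of 30 rose and 5 fell in Q7 cells and 9 rose and 10 fell in Q111 cells. Coa6, a copper delivery factor of complex IV, rose by 1.87 and 1.21, whereas Coa7 fell by 1.82 in Q7 cells, and Ttc19, of complex III, fell by 1.16 and 1.71.

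Of 14 genes of mitochondrial transcription and replication 7 rose and none fell in Q7 cells, and 7 rose and 2 fell in Q111 cells. Gabpb1, a subunit of the factor GABP, rose by 0.85 and 0.75. Esrra, a nuclear receptor of mitochondrial genes, rose by 1.11 in Q7 cells, and Polg2, the accessory subunit of the mitochondrial DNA polymerase, by 0.86 in Q111 cells. Polg and Polrmt, the mitochondrial DNA and RNA polymerases, fell in Q111 cells by 1.5 and 1.46. Of 76 mitochondrial ribosomal proteins 14 rose and 4 fell in Q7 cells and 22 rose and 7 fell in Q111 cells, with medians of 0.16 and 0.24. Mrpl50 rose by 1.42 and 1.22 and Mrps33 by 1.06 in Q7 cells, while Mrpl2 and Mrpl55 fell by 1.30 and 1.17 in Q7 cells and Mrps27 and Mrps2 by 1.23 and 1.05 in Q111 cells. These lists are read beside the 12.3% of all genes that rose and 18.1% that fell in Q7 cells, and the 20% and 28.2% in Q111 cells.

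Over the 64 members the Pearson correlation of the change with the log10 genomic length was -0.14 in Q7 cells and -0.02 in Q111 cells (all genes -0.16 and -0.14), and with the mean level it was -0.22 and -0.27 (all genes -0.068 and -0.188). In complex IV the correlation with the mean level in Q111 cells was -0.391, and its Spearman value was -0.449. These are descriptions over genes that share the same arrays.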

How the data were processed

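The authors deposited 1 log2 value per probe set and array, computed with RMA per the submitters' processing notes; RMA subtracts background, equalizes the arrays by quantiles and combines the probes of a set. Its version is not given in the sources used here. Levels were used as deposited. The table held 45101 probe sets, of which 34945 named 1 gene, 932 several and 9160 none, besides 64 controls; only those naming 1 gene were used. limma (version 3.58.1, R version 4.3.3) was fitted with 1 mean for each of 4 groups over 12 arrays (8 residual and 3.23 prior degrees of freedom), with 5 two-sided contrasts and Benjamini-Hochberg adjustment over 18194 genes. The procedure was tested on simulated data. The precision is limited by 3 arrays per group.

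The members and gene lists were chosen with earlier results of these data known. Genes named were, per comparison and complex, up to 3 called members with the largest change in each direction, the complex II genes, core subunits, tissue isoforms with their counterparts, members whose probe sets disagree, and up to 2 called genes in each direction from each other list; further names complete a count. Correlations with protein length were not analysed here, and genomic length (RefSeq, GRCm38.p6) was used instead, a choice made after seeing the reference tables.

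Replicate numbers come from the labels. Deviations of same-numbered untreated arrays of the lines correlated across genes (r = 0.516, 0.402 and 0.577), which was taken as pairing from the data. The labels do not state it. Same-numbered heat-shocked arrays gave r = 0.345, -0.497 and -0.315, while replicates 3 and 2 reached 0.588. Correlations of this size thus also arose between unlike numbers, and the pairing is uncertain. No pairing was assumed in the other comparisons. Pairs of replicates shared identical values in 10 to 60 probe sets and were counted as separate arrays. Alternatives were other scalings, the mean of all probe sets, the brighter genes, other variance models, array weights, a replicate block, the actin covariate, only the groups compared, a stricter threshold and each array left out.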

Additional observations from a re-analysis of the deposited data

Results flagged for a closer look

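Probe sets that name a subunit gene together with another gene were left out of the members, and 6 such combinations had a signal above background range. The probe set naming Ndufb4b, Ndufb4c and Ndufb4 had a mean level of 12.9 and rose by 0.52 in Q7 cells and 0.61 in Q111 cells after heat shock (limma adjusted p = 0.0115 and 0.00335). The single-gene probe set used for Ndufb4 had a mean level of 4.11 and did not pass, so this accessory subunit of complex I is represented above by a signal near background. The probe set naming Ndufs6b and Ndufs6, a zinc-binding accessory subunit, had a mean level of 11.5 and rose by 0.50 and 0.73. That naming Ndufs5 and Ndufs5-ps had a mean level of 11.9 and changes of 0.28 and 0.45, of which the second passed. That naming Ndufa11b and Ndufa11 had a mean level of 12.7 and changes of -0.02 and 0.24, neither called. The remaining ones were dim: that of Ndufb2 and Adck2 had a mean level of 5.86 and that of Yjefn3 and Ndufa13 one of 5.88, and their heat shock changes did not pass.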

How the results depend on the processing

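The number of called subunits depended on the setting. For heat shock in Q7 cells the count of 23 was 39 with arrays centred on all genes, 36 with a variance trend and robust fitting, 38 with array weights, 1 with the actin covariate and 13 at an adjusted p under 0.01, and leaving out 1 array gave 13 to 28, the highest without the heat-shocked Q111 array of replicate 3. For Q111 cells the count of 31 was 59, 16 with the actin covariate, 18 with only the groups compared and 16 at 0.01, and leaving out 1 array gave 24 to 32. For the difference of effects the count of 0 was 2 with that centring and 4 with array weights, and 0 to 1 with an array left out. For the lines at 33 °C the count of 5 was 3 among brighter genes, 8 with the trend, 3 with the actin covariate, 2 at 0.01 and 2 to 5 with an array left out. After heat shock the count of 4 was 2 among brighter genes, 22 with the centring and 14 with array weights, whose fit did not converge fully, and 3 to 6 with an array left out. The brighter-gene and 0.01 settings allow fewer genes or calls by construction; the cause of the other shifts was not tested.

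With the replicate number as a block, 21 members were called for heat shock in Q7 cells, 29 in Q111 cells, 0 for the difference, and 4 for the lines at each temperature. Fitted to the untreated arrays alone, where the numbers were taken as pairing, the block called 7 members at 33 °C, 2 higher and 5 lower, including the 5 called without it. Members near background range and those with SE near 0.5 (Cox7b2) allow no statement on small changes.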
